A study of Mus musculus with 15 samples.

Results

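The effect of a single oral dose of celecoxib on the transcripts of the mouse thoracic aorta was examined by comparing 5 celecoxib libraries with 5 vehicle libraries. All genes with enough counts to test were kept, 15134 of the 37681 in the deposited gene count table, and the members were therefore chosen by the group labels and not by a measured change. The 10 libraries compared belong to a set of 15, and the remaining 5 came from mice given rofecoxib. Every animal was an adult male wild-type C57BL/6 mouse aged 10 to 12 weeks on regular chow. Celecoxib mice received 30 mg/kg and rofecoxib mice 10 mg/kg, each as 100 uL by gavage. Vehicle mice received 100 uL of PEG-400, a polyethylene glycol solvent. Mice were killed 6 h after the gavage, with collection at ZT11, 11 h after lights on under a 12 h light and 12 h dark schedule. Polyadenylated RNA of the whole vessel was sequenced, so a lower level may reflect fewer cells of a type or less RNA per cell, and the sample cannot tell these apart. Only 1 time and 1 dose of celecoxib were sampled.

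Celecoxib is a non-steroidal anti-inflammatory drug that selectively blocks cyclooxygenase-2, the inducible enzyme that turns arachidonic acid into the precursor of prostaglandins, prostacyclin and thromboxane. In a vessel wall, prostacyclin and prostaglandin E2 act through G protein-coupled receptors on smooth muscle, largely by raising or lowering cyclic AMP, and thereby affect tone, platelet adhesion and growth. The thoracic aorta of a mouse consists mainly of smooth muscle with an endothelial lining and an adventitia of fibroblasts, and is sheathed in perivascular fat that contains brown adipocytes. The comparison asks which aortic transcripts differ between mice given celecoxib and mice given vehicle. Transcript counts do not measure whether cyclooxygenase-2 was blocked in these aortas.

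Deposited counts summed to between 30937046 and 30967115 per library, and 19183 to 19739 genes had at least 1 count in each of the 10 libraries. Levels are given as CPM, counts of a gene scaled to a common library size, and a log2 fold change is celecoxib over vehicle. The 10 smooth muscle markers summed to 48229.9 to 52224 CPM in celecoxib and 41019.9 to 55114 CPM in vehicle, so the main cell type of the labelled tissue was abundant in all 10. Levels of adipocyte markers were not even between the groups. Summed CPM of 12 white and general adipocyte markers ran from 987 to 2426 in celecoxib and from 1849 to 4276 in vehicle, with 9 of 12 lower at an unadjusted p under 0.05. The 10 brown adipocyte markers summed to 90.9 to 596 CPM in celecoxib and 432 to 1755 CPM in vehicle, with 10 of 10 lower. Sympathetic nerve markers were high in celecoxib 4 at 757.5 CPM, celecoxib 2 at 117 CPM and vehicle 4 at 325.5 CPM, and lay between 8.17 and 34.2 CPM in the other 7 libraries. Of 5 thymocyte markers, Rag1, Rag2 and Dntt had 0 counts in all 10. The 5 together summed to at most 0.034 CPM in celecoxib and 0.161 CPM in vehicle. Celecoxib 1 stood apart on the second principal component. Because the adipocyte markers differed, some values below are also given from a fit with an adipocyte covariate. It is the mean log2 CPM of the white and brown markers in each library. This covariate ran from 3.62 to 5.71 in celecoxib and from 5.28 to 6.65 in vehicle, so part of any group difference is carried by it in that fit. Its brown markers include the mitochondrial genes Ucp1, Ucp3, Cox7a1 and Cox8b and the regulator Ppargc1a.

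No gene passed the threshold. In edgeR's quasi-likelihood test, adjusted over 15134 genes by the method of Benjamini and Hochberg, the smallest adjusted p was 0.146, so 0% of genes were called at 0.05. The unadjusted p was under 0.05 for 1896 genes, 12.5% of those tested, of which 810 were higher in celecoxib (5.35%) and 1086 lower (7.18%). These shares are the background for the family counts below from this fit. A member is counted below as higher or lower when its unadjusted p was under 0.05. Family counts with the adipocyte covariate are read against the shares of that fit, 3.82% higher and 2.61% lower. The adjusted p printed for a gene is from the same edgeR test. The limma-voom test also called 0 genes, with 1874 at an unadjusted p under 0.05 (12.4%), while DESeq2 called 126 genes (0.833%), 33 higher (0.218%) and 93 lower (0.615%). Leaving out celecoxib 4 raised the edgeR count to 8 (0.0525%), among them Vegfa, Hspd1, Dhrs9, Ucp3 and Adrb1, leaving out vehicle 2 to 2 genes (0.013%), Anxa8 and Dhrs9, and leaving out celecoxib 5 to 1 gene (0.00652%), Lmcd1. The background also moves with the library left out. Without celecoxib 1 to 5 in turn, 4.12, 6.49, 4.56, 7.52 and 7.49% of genes were higher and 5.88, 5.39, 5.15, 8.13 and 6.69% were lower. Without vehicle 1 to 5 in turn, 4.73, 5.92, 7.62, 4.14 and 4.1% were higher and 6.5, 6.94, 7.35, 5.29 and 4.57% were lower. Family counts with a library left out are read against these shares.

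The median log2 fold change of all genes was 0.01, and genes between the 25th and 75th percentiles lay from -0.11 to 0.11. Differences of more than 2-fold at p under 0.05 were seen for 30 higher and 109 lower genes, and of more than 1.5-fold for 123 higher and 279 lower genes. All 5 celecoxib libraries lay above all 5 vehicle libraries for 84 genes (0.555%) and below them for 112 genes (0.74%). The shares at p under 0.05 varied with level: of the 3784 genes with the lowest mean CPM 3.12% were higher and 4.57% lower, while of the 3783 genes with 19.1 to 55.5 CPM 6.85% were higher and 9.15% lower. By chromosome the higher share ran from 3.57% of 589 genes on chromosome 15 to 8.1% of 506 on chromosome 14, and the lower share from 3.93% of 535 on the X chromosome, where 7.85% were higher, to 8.45% of 1278 on chromosome 11. The higher genes spanned a median of 29.6 kb of genome and the lower genes 16.3 kb, against 21.8 kb for all genes tested.

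**Figure D1:**
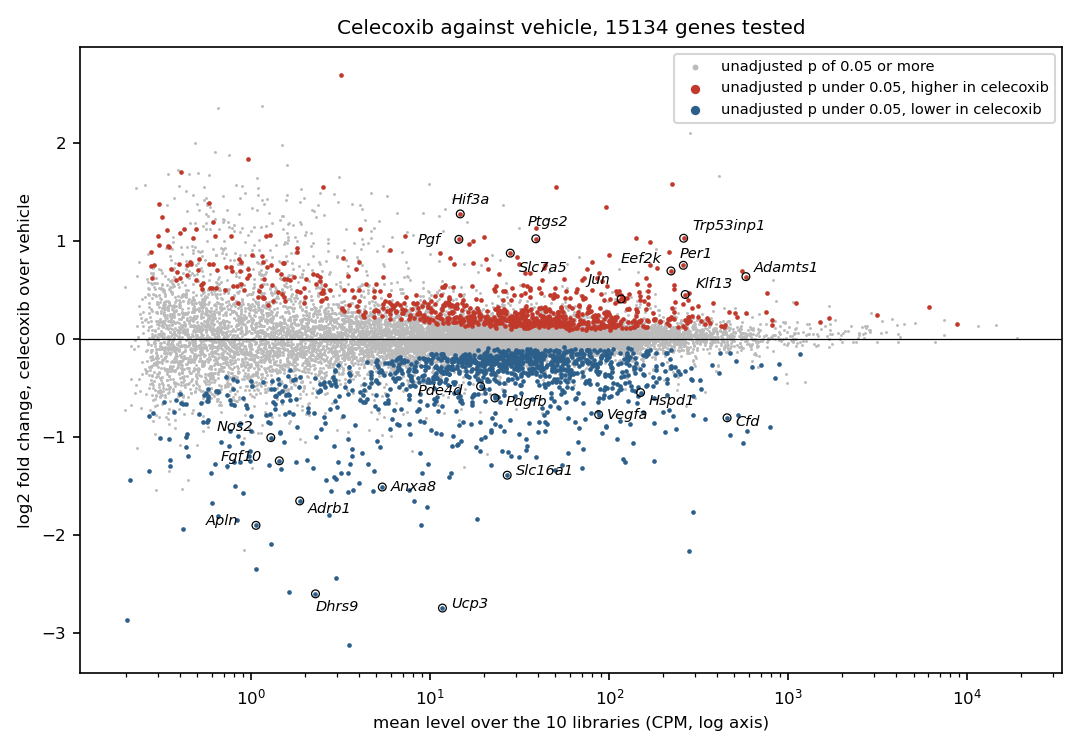
Each point is 1 of the 15134 genes tested, plotted by mean CPM over the 10 libraries on a log axis and by log2 fold change of celecoxib over vehicle, with genes at an unadjusted p under 0.05 in red (810 higher) and blue (1086 lower). Circled genes are named in the text. Dhrs9 lies at -2.60 and Ptgs2 at 1.02, and most red and blue points lie close to 0.

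With the adipocyte covariate, 283 of the 810 higher genes (34.9%) were again higher at p under 0.05, and their median log2 fold change was 0.23, against 0.26 without the covariate. Of the 1086 lower genes, 163 (15%) were again lower, and their median was -0.13 with the covariate, against -0.35 without it. Among genes whose groups did not overlap, the covariate left 60 of 84 higher and 49 of 112 lower genes at p under 0.05 in the same direction. The whole table then held 578 genes at p under 0.05 that were higher (3.82%) and 395 lower (2.61%).

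The transcript of the drug's own target stood above vehicle on average, without passing the adjustment. Ptgs2, which encodes cyclooxygenase-2, had 47.05, 30.8, 47.9, 43.4 and 90.8 CPM in celecoxib 1 to 5, against 17.998, 32.3, 27.7, 26.8 and 23.3 CPM in vehicle 1 to 5 (log2 fold change 1.02, SE 0.26, adjusted p = 0.269). Celecoxib 5 was the highest and celecoxib 2, the lowest treated library, lay below vehicle 2, so the groups overlapped. Without celecoxib 5 the log2 fold change was 0.73, and with the adipocyte covariate it was 0.92. Ptgs1, which encodes the constitutive cyclooxygenase-1, averaged 15.98 ± 4.64 CPM in celecoxib and 15.2 ± 3.74 CPM in vehicle (SD, n = 5 each), and its sign turned to -0.03 without celecoxib 5.

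The Ptgs2 promoter is shown because the gene encodes the drug target and carries 2 motifs of signal-regulated transcription close to its start. The window runs from 250 bases before to 50 after the RefSeq start, on GRCm38.p6 at chr1:150099781-150100080 on the + strand. Capitals mark the cyclic AMP response half-site TGACG, searched on both strands and read here as CGTCA, joined to the E-box CACGTG, with which it shares 2 letters.
Ptgs2: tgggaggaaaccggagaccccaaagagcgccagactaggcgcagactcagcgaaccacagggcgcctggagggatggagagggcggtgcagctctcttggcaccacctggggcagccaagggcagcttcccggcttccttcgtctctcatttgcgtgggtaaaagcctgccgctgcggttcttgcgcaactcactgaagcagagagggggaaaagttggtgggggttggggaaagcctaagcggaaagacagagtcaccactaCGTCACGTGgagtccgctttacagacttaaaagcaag
Of 10237 tested genes with a promoter in the RefSeq table, 33.8% hold the half-site and 11.5% the E-box in the same window, and a match says nothing of binding in these samples.

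Downstream of the cyclooxygenases, 3 members of the list of 21 tested prostanoid genes were lower at p under 0.05 and 1, Ptgs2, was higher, with a list median of -0.09 against 0.01 for all genes. Ptges2, a membrane-associated prostaglandin E synthase, averaged 13.9 ± 2.17 CPM in celecoxib and 18.9 ± 3.32 CPM in vehicle (log2 fold change -0.45, SE 0.12, adjusted p = 0.269), and its value with the adipocyte covariate was -0.11. Ptger1, the EP1 receptor for prostaglandin E2, had 50.9, 47.4, 48.2, 48.5 and 49.6 CPM in celecoxib and 51.8, 53.01, 54.9, 56.02 and 64.1 CPM in vehicle (log2 fold change -0.19, SE 0.05, adjusted p = 0.269). All celecoxib libraries lay below all vehicle libraries for Ptger1, by a small margin. With the covariate Ptger1 read -0.11, and 1 member of the list was lower in place of 3. Ptges, the inducible prostaglandin E synthase, averaged 3.28 CPM in celecoxib and 4.77 CPM in vehicle (log2 fold change -0.54, adjusted p = 0.395).

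The genes of smallest p lay mostly in the lower direction. Dhrs9, a short-chain dehydrogenase that acts on retinol and 3-hydroxysteroids, had 0.373, 0.418, 0.722, 0.898 and 0.810 CPM in celecoxib and 2.025, 1.61, 3.92, 3.90 and 8.14 CPM in vehicle (log2 fold change -2.60, SE 0.40, adjusted p = 0.146). The groups did not overlap, vehicle 5 was the highest, and every celecoxib library was under 1 CPM. With the adipocyte covariate the value was -1.66. Anxa8, a calcium-dependent phospholipid-binding annexin, had 3.66, 1.802, 2.59, 3.37 and 2.59 CPM in celecoxib and 8.07, 4.08, 10.2, 11.2 and 6.34 CPM in vehicle (log2 fold change -1.51, SE 0.27, adjusted p = 0.173). Its groups did not overlap either, with vehicle 2 nearest to celecoxib 1, and it read -0.96 with the covariate. Both transcripts are scarce, so they rest on fewer counts than most genes named here.

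Hspd1 and Hspe1 encode the mitochondrial chaperonin HSP60 and its partner HSP10, which together fold imported proteins. Hspd1 had 114, 111, 118, 143 and 120.4 CPM in celecoxib and 163, 152, 179.9, 175 and 216 CPM in vehicle (log2 fold change -0.55, SE 0.10, adjusted p = 0.173). Hspe1 had 46.2, 46.3, 48.5, 50.4 and 45.3 CPM in celecoxib and 59.7, 58.1, 54.6, 62.8 and 67.0 CPM in vehicle (log2 fold change -0.35, SE 0.06, adjusted p = 0.173). For both genes the 5 celecoxib libraries lay below the 5 vehicle libraries. With the adipocyte covariate the values were -0.25 for Hspd1 and -0.20 for Hspe1.

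The promoters of this pair are shown because the genes lie head to head and lay on the same side of vehicle, and the windows of Hspe1 and of 1 of the 2 Hspd1 starts cover the same stretch on opposite strands. Hspe1 is read from chr1:55087898-55088197 on the + strand and Hspd1 from chr1:55087883-55088182 on the - strand, both on GRCm38.p6 from RefSeq. In the same way the start of Dhrs9, the gene of smallest p, is read from chr2:69380212-69380511 on the + strand. Capitals mark the heat shock element GAANNTTC, the cyclic AMP response half-site TGACG or its reverse CGTCA, and, in Dhrs9, the AP-1 motif TGANTCA.
Hspe1: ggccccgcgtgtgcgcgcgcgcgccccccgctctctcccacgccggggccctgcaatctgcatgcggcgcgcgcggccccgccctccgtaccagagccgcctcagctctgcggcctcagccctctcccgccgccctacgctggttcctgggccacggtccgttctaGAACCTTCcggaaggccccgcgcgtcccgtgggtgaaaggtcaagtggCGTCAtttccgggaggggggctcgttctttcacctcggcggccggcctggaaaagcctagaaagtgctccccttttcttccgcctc
Hspd1: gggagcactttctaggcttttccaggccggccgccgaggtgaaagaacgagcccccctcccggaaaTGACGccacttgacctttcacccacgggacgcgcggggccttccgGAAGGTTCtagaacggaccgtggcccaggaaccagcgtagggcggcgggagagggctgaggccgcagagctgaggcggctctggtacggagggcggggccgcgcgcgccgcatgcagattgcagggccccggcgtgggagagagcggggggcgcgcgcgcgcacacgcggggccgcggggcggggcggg
Dhrs9: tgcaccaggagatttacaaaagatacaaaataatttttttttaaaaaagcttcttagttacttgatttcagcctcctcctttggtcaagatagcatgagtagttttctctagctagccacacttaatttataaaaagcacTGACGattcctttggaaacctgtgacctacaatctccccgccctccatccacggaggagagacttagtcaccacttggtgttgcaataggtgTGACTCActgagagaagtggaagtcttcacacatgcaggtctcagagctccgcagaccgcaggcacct
The heat shock element shared by both chaperonin windows occurs in 7.05% of the 10237 promoters and the AP-1 motif in 6.43%. Among the 574 higher genes with a promoter, the palindromic glucocorticoid response element, searched on both strands, was in 9 windows (1.57%). It was in 0.41% of all promoters, in 0.394% of those of the lower genes, and in 1 of 62 of the higher genes without overlap. Other motifs were searched too. For the higher genes the CCAAT box was in 48.6% against 42.5% of all promoters, and the heat shock element in 6.97%. For the lower genes the nuclear receptor half-site AGGTCA was in 18.9% against 14.9%. No difference in share was tested. A match is a description of these letters only.

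Further lower genes of small p followed. Ppcs, of coenzyme A synthesis, had 4.98, 6.95, 5.78, 6.86 and 5.64 CPM in celecoxib and 9.10, 7.57, 7.68, 9.05 and 9.55 CPM in vehicle (log2 fold change -0.51, SE 0.10, adjusted p = 0.252). Tomm5, a subunit of the outer membrane import channel, averaged 19.6 ± 1.82 CPM in celecoxib and 24.6 ± 1.72 CPM in vehicle (log2 fold change -0.32, SE 0.07, adjusted p = 0.252). Neither overlapped between the groups. Ndufaf4, an assembly factor of respiratory complex I, stood at -0.37, Akap1, which anchors protein kinase A to the outer mitochondrial membrane, at -0.44, and Mmaa, of vitamin B12 handling, at -0.39 on the log2 scale. Csad, a decarboxylase of taurine synthesis, stood at -0.33, and Acsl5, which activates long-chain fatty acids, at -0.42. In the fit with the adipocyte covariate these 5 read -0.22, -0.20, -0.35, -0.16 and -0.24 in the same order. The oxidative phosphorylation and citrate cycle list, named here for scale, had 37 of 40 members lower with a median of -0.39, and 0 of 40 with the covariate, where its median was 0.01. The covariate itself holds mitochondrial genes, so part of that drop is built into the fit.

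The genes with the clearest separation in the higher direction had varied roles. Cdc14a, a phosphatase of the cell cycle and of cilia, had 37.8, 29.9, 38.8, 30.8 and 30.995 CPM in celecoxib and 26.5, 21.3, 26.8, 22.7 and 25.97 CPM in vehicle (log2 fold change 0.45, SE 0.09, adjusted p = 0.252). Stk17b, an apoptosis-related serine/threonine kinase, had 129.8, 122, 168, 133 and 133 CPM in celecoxib and 101, 113, 102, 102 and 108 CPM in vehicle (log2 fold change 0.38, SE 0.08, adjusted p = 0.260). The groups did not overlap for either gene, and celecoxib 3 was the highest for both. Rapgef5, an exchange factor for Rap GTPases, averaged 17.8 ± 1.43 CPM in celecoxib and 14.01 ± 1.16 CPM in vehicle (adjusted p = 0.260). Lxn, which inhibits carboxypeptidases, averaged 35.95 ± 2.16 CPM in celecoxib and 29.9 ± 1.25 CPM in vehicle (adjusted p = 0.260). Both were separated without overlap, with differences of under 1.5-fold, and Rapgef5 read 0.23 with the covariate in place of 0.35.

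Further higher genes of small p mostly differed by small amounts. Mkl2, a coactivator of serum response factor in smooth muscle, averaged 56.3 ± 1.97 CPM in celecoxib and 46.4 ± 3.73 CPM in vehicle (log2 fold change 0.28, SE 0.06, adjusted p = 0.260). Anapc4, a subunit of the anaphase-promoting complex, stood at 0.25 (adjusted p = 0.260) and Strn, a scaffold of the striatin phosphatase complex, at 0.18 (adjusted p = 0.269). Each of these 3 had all celecoxib libraries above all vehicle libraries. Eif5a2, a translation factor, stood at 0.26 with groups that overlapped. Ammecr1, an X-linked gene of unsettled function, had 29.4, 11.8, 15.7, 13.9 and 11.4 CPM in celecoxib and 8.68, 9.44, 9.11, 9.14 and 10.05 CPM in vehicle, and its log2 fold change of 0.82 became 0.52 without celecoxib 1.

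**Figure D2:**
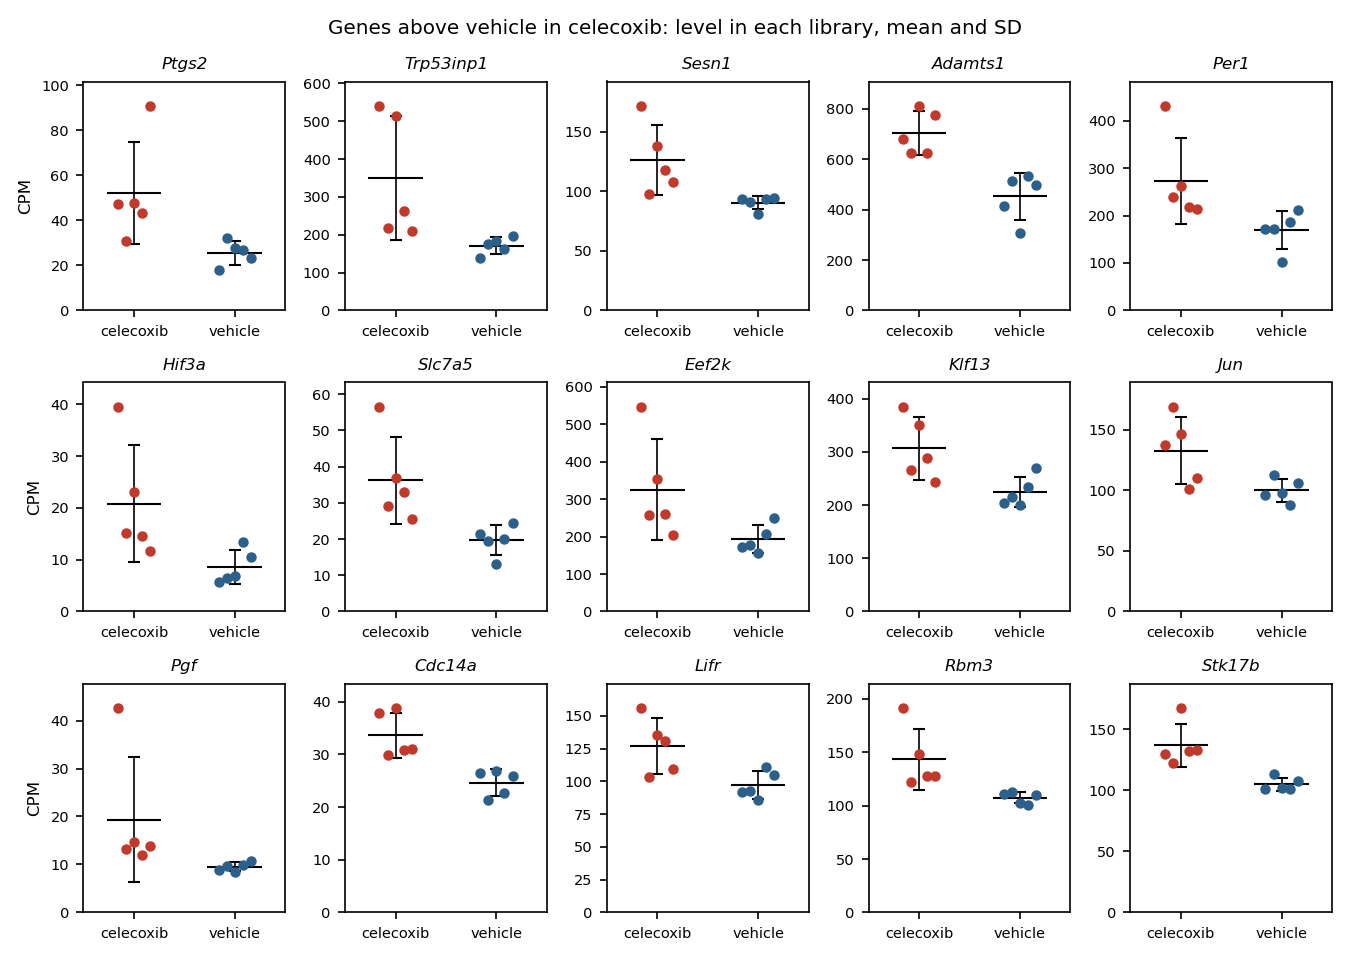
CPM of 15 genes that stood above vehicle, 1 panel per gene with its own axis from 0, points for the 5 celecoxib libraries (left, red) and the 5 vehicle libraries (right, blue) and bars for the mean and SD. Celecoxib 1, the leftmost red point, is the highest of its group for Trp53inp1, Per1, Hif3a, Eef2k and Pgf, while for Cdc14a and Adamts1 all 5 red points lie above all 5 blue points.

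The family of glucocorticoid-responsive genes had the highest median of the 57 families. Like the other lists, it was chosen with earlier results of these data known, so its rank is a description only. Of 27 tested members 12 were higher at p under 0.05 and 0 lower, and the median log2 fold change was 0.67, against 0.01 for all genes. With the adipocyte covariate 15 members were higher, where the background was 3.82%. The count depended on single libraries: without celecoxib 1, 5 members were higher and the median was 0.29, and without vehicle 1, 6 were higher, while leaving out celecoxib 2 gave 18. Adamts1, a secreted protease of the vessel wall, had 681, 627, 812, 626 and 776 CPM in celecoxib and 415, 512, 308, 535 and 498 CPM in vehicle (log2 fold change 0.63, SE 0.15, adjusted p = 0.269). Sesn1, a stress-induced regulator of TORC1 that is also a p53 target, had 172, 97.5, 138, 118 and 108 CPM in celecoxib and 93.4, 91.3, 80.8, 93.2 and 94.1 CPM in vehicle (log2 fold change 0.48, SE 0.12, adjusted p = 0.269). For both the groups did not overlap. Hif3a, a hypoxia-inducible factor subunit that can restrain the others, had 39.5, 15.2, 22.97, 14.7 and 11.7 CPM in celecoxib and 5.69, 6.52, 6.81, 13.5 and 10.47 CPM in vehicle (log2 fold change 1.27, SE 0.32, adjusted p = 0.269). Celecoxib 1 was the highest, and celecoxib 5 lay below vehicle 4. Without celecoxib 1 these 3 genes stood at 0.66, 0.36 and 0.92.

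The level of this family also varied within the vehicle group: vehicle 5 lay above the vehicle mean for 25 of the 27 genes and vehicle 4 for 24, against 2 for vehicle 1. Fkbp5, a co-chaperone of the steroid receptors, had 972, 126, 279.6, 197 and 101 CPM in celecoxib and 43.6, 46.04, 57.7, 189.9 and 223 CPM in vehicle. Vehicle 5 exceeded 3 of the 5 celecoxib libraries. The metallothionein Mt2 had 1891, 40.5, 258, 71.5 and 33.4 CPM in celecoxib and 33.4, 32.7, 304, 66.8 and 101 CPM in vehicle (log2 fold change 2.09, adjusted p = 0.429). Vehicle 3 exceeded 4 of the 5 celecoxib libraries for Mt2. Fkbp5 and Mt2 fall outside the naming rule and were chosen after their values were seen.

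**Figure D3:**
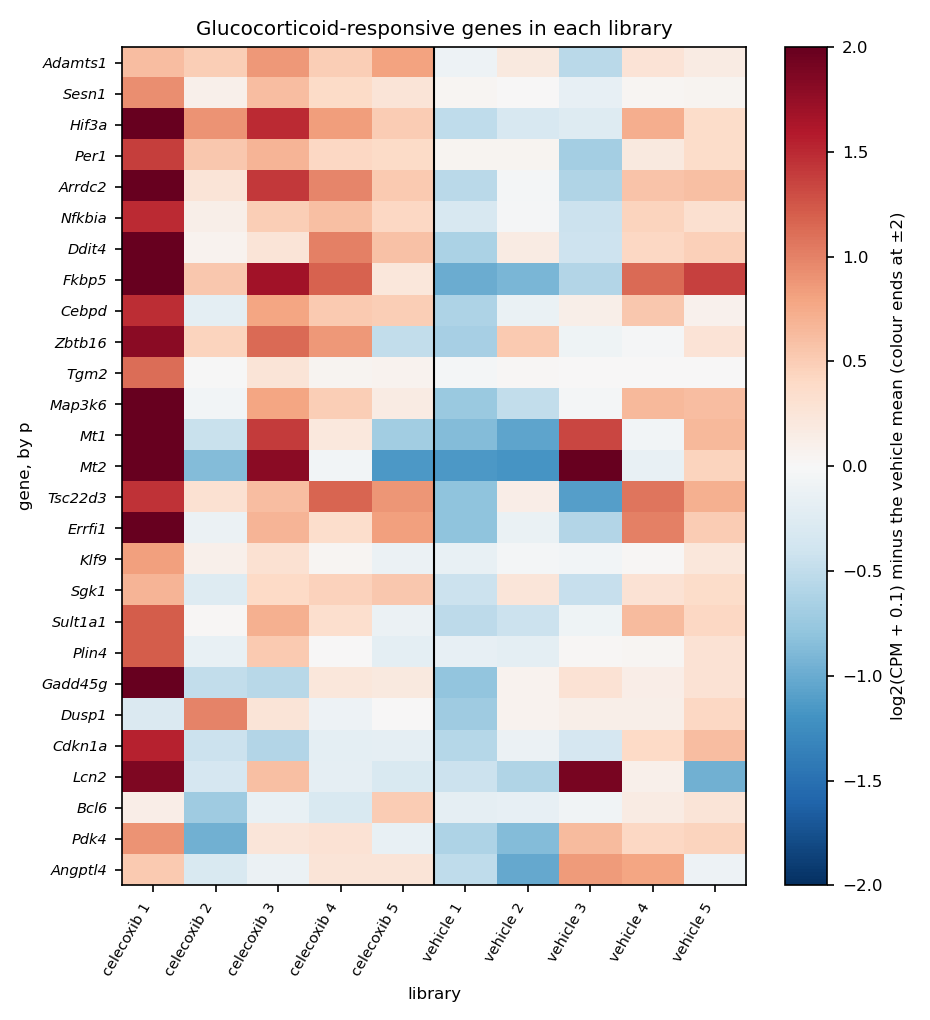
Rows are the 27 tested glucocorticoid-responsive genes ordered by p, columns are the 5 celecoxib libraries (left of the line) and the 5 vehicle libraries, and colour is log2(CPM + 0.1) minus the vehicle mean, limited to 2 in either direction. Celecoxib 1 is above the vehicle mean in 26 of 27 rows, celecoxib 3 in 23 and celecoxib 2 in 13, while vehicle 5 is above it in 25 rows, vehicle 4 in 24 and vehicle 1 in 2.

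Per1, a repressor of the circadian clock that glucocorticoids also induce, had 431, 239, 262, 218 and 214 CPM in celecoxib and 171, 171, 103, 187 and 212 CPM in vehicle (log2 fold change 0.69, SE 0.20, adjusted p = 0.275). The groups were separated by the gap between celecoxib 5 and vehicle 5, and celecoxib 1 was far above its group. In the clock list of 23 tested genes, 5 were higher (Per1, Per2, Per3, Tef and Wee1) and 2 lower, Npas2 among them, at p under 0.05, with a median of 0.09. Per3, a further period gene, averaged 184 ± 25.7 CPM in celecoxib and 144 ± 30.6 CPM in vehicle, and Wee1, a clock-controlled cell cycle kinase, averaged 27.6 ± 4.40 CPM in celecoxib and 19.03 ± 4.69 CPM in vehicle. Per3 read 0.18 with the covariate in place of 0.35, and the list then held 3 higher members. Without celecoxib 1 the clock counts were 3 higher and 3 lower, without vehicle 3 there were 3 higher, and without celecoxib 5 there were 7 higher. The clock list shares 1 gene with the glucocorticoid-responsive list.

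Targets of p53 and apoptosis genes had 9 higher and 2 lower members of 44 tested, with a median of 0.05. The list shares 3 genes with the glucocorticoid-responsive list, Sesn1 among them, so the 2 counts are not separate. Trp53inp1, a p53-induced protein that promotes autophagy and cell death, had 540.0, 219, 513, 262 and 210.0 CPM in celecoxib and 138, 176, 184, 163 and 196 CPM in vehicle (log2 fold change 1.03, SE 0.25, adjusted p = 0.269). Every celecoxib library exceeded every vehicle library, and celecoxib 1 and celecoxib 3 were more than 2-fold above the vehicle mean. Fas, a death receptor, went the other way, with 36.9, 31.8, 42.99, 40.7 and 51.3 CPM in celecoxib and 42.3, 60.1, 58.3, 61.7 and 52.9 CPM in vehicle (log2 fold change -0.43, SE 0.12, adjusted p = 0.269). Celecoxib 3 and celecoxib 5 exceeded vehicle 1 for Fas, and the other 3 lay below all vehicle libraries. Mdm2, the ubiquitin ligase that degrades p53, differed by only 0.15 (adjusted p = 0.310), and the remaining higher members were Sesn1, Btg2, Perp, Apaf1 and the inhibitors of apoptosis Birc2, Birc3 and Xiap. With the covariate 6 members were higher and 2 lower, and over the libraries left out in turn the higher count ran from 6 without celecoxib 1, celecoxib 3 or vehicle 1 to 11 without vehicle 3. Without celecoxib 5 the lower count was 4.

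Early-response transcription factors were mixed. In the immediate early list 7 of 32 members were higher and 4 lower, with a median of 0.10, and with the covariate only 1 was higher and 1 lower. Jun, an AP-1 subunit, had 138, 169, 146, 101 and 109.8 CPM in celecoxib and 96.0, 112, 97.7, 87.9 and 106 CPM in vehicle (log2 fold change 0.41, SE 0.12, adjusted p = 0.275). Celecoxib 1, 2 and 3 were above all vehicle libraries and celecoxib 4 and 5 were within their range. Zfp36l1, which destabilises mRNAs with AU-rich elements, averaged 51.4 ± 14.6 CPM in celecoxib and 72.8 ± 13.7 CPM in vehicle (log2 fold change -0.50, SE 0.17, adjusted p = 0.293), whereas its relative Zfp36 stood at 0.46 (adjusted p = 0.313). With the covariate Jun read 0.20 and Zfp36l1 -0.81. Without celecoxib 1 the higher count was 3, and without vehicle 3 the lower count was 2.

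The Kruppel-like factors had 3 of 14 members higher and 0 lower, with a median of 0.23 that was 0.17 with the covariate and 0.15 without celecoxib 1. Klf13 had 384, 267, 351, 289 and 243 CPM in celecoxib and 203, 214, 200.4, 233 and 269 CPM in vehicle (log2 fold change 0.45, SE 0.12, adjusted p = 0.269). Celecoxib 2 and celecoxib 5 were within the vehicle range, and the other 3 treated libraries were above all vehicle libraries. Klf11, a repressor linked to TGF-beta signalling, averaged 29.9 ± 6.84 CPM in celecoxib and 21.3 ± 3.13 CPM in vehicle (log2 fold change 0.49, adjusted p = 0.275), and read 0.25 with the covariate. Klf6 stood at 0.24 (adjusted p = 0.339). The higher count ran from 2 without celecoxib 3, vehicle 1 or vehicle 4 to 5 without celecoxib 2 or celecoxib 4.

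Nuclear receptors leaned lower, with 8 of 35 lower and 1 higher and a median of -0.13. Nr1h3, the oxysterol receptor LXR alpha, averaged 14.2 ± 2.65 CPM in celecoxib and 20.9 ± 4.98 CPM in vehicle (log2 fold change -0.56, SE 0.17, adjusted p = 0.275). Esrra, a receptor that drives mitochondrial genes, averaged 27.99 ± 3.39 CPM in celecoxib and 37.8 ± 8.69 CPM in vehicle (log2 fold change -0.43, SE 0.13, adjusted p = 0.275). Pparg, the master regulator of adipocytes, stood at -1.02. In the covariate fit these read -0.02, -0.10 and 0.07, and 2 of 35 members were lower. The lower count ran from 4 without vehicle 5 to 10 without celecoxib 4.

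Signals of vascular growth and hypoxia formed the next group. In the list of VEGF, angiopoietin and endothelial receptor genes 5 of 38 members were lower and 2 higher, with a median of -0.14. Vegfa, the main endothelial growth factor, had 58.9, 53.97, 52.3, 92.5 and 64.3 CPM in celecoxib and 100.2, 89.2, 89.3, 136 and 135 CPM in vehicle (log2 fold change -0.77, SE 0.17, adjusted p = 0.260). Only celecoxib 4 reached the vehicle range. Apln, the ligand of the apelin receptor, had 0.136, 0.676, 0.0985, 0.962 and 0.356 CPM in celecoxib and 1.61, 1.58, 0.777, 3.08 and 1.35 CPM in vehicle (log2 fold change -1.90, SE 0.53, adjusted p = 0.269). Celecoxib 4 exceeded vehicle 3 for Apln, and 4 celecoxib libraries were below all vehicle libraries. Receptors on the same side were Kdr, VEGF receptor 2, at 19.97 CPM in celecoxib and 35.4 CPM in vehicle (log2 fold change -0.83, adjusted p = 0.276) and the apelin receptor Aplnr at -0.71 (adjusted p = 0.398). Without celecoxib 3 the lower count was 3, and without vehicle 4 the higher count was 4.

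Pgf, placental growth factor, stood on the other side with 42.6, 13.3, 14.7, 12.02 and 13.9 CPM in celecoxib and 8.90, 9.77, 8.52, 9.81 and 10.8 CPM in vehicle (log2 fold change 1.01, SE 0.29, adjusted p = 0.275). Its groups did not overlap, although celecoxib 1 stood far above the rest of its group, and the log2 fold change was 0.51 without it. The other VEGF family member above vehicle was Figf, VEGF-D, at 0.28, while Vegfb stood at -0.30. With the adipocyte covariate Vegfa read -0.23, Apln -1.29, Pgf 1.31, Kdr -0.44 and Aplnr -0.68. The list then held 2 lower and 1 higher member, and its median was 0.05. The 12 endothelial markers, which include Kdr, summed to 842 to 1327 CPM in celecoxib and 941 to 1315 CPM in vehicle, and Kdr was the 1 marker of the 12 that was lower at p under 0.05. The markers lay on the same side as the list, with 10 of 12 at a negative log2 fold change and a median of -0.16. The part of endothelial cell number in these values was not tested.

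In the hypoxia and glycolysis list 10 of 36 members were lower and 1, Hif3a, was higher, with a median of -0.07. Slc16a1, the monocarboxylate transporter MCT1 that carries lactate and ketone bodies, had 13.5, 12.2, 11.7, 23.2 and 13.7 CPM in celecoxib and 22.3, 19.2, 49.2, 39.7 and 64.1 CPM in vehicle (log2 fold change -1.39, SE 0.31, adjusted p = 0.260). Celecoxib 4 alone overlapped the vehicle range, and vehicle 3, 4 and 5 were the highest. Egln3, an oxygen sensor that hydroxylates hypoxia-inducible factors, had 3.86, 5.73, 7.98, 7.31 and 6.57 CPM in celecoxib and 10.9, 7.60, 10.9, 8.98 and 14.02 CPM in vehicle (log2 fold change -0.74, SE 0.19, adjusted p = 0.269). Celecoxib 3 lay just above vehicle 2. With the covariate Slc16a1 read -0.63 and Egln3 -0.63, while the list count became 1 lower and 3 higher. Glycolytic members counted as lower were Eno1 at -0.41, Pfkl at -0.34, Pgam1 at -0.22, Ldha at -0.30 and Ldhb at -0.45. With the covariate these 5 read -0.02, 0.02, 0.03, 0.05 and -0.10 in the same order. The lower count ran from 5 without celecoxib 2 or vehicle 5 to 13 without celecoxib 4.

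**Figure D4:**
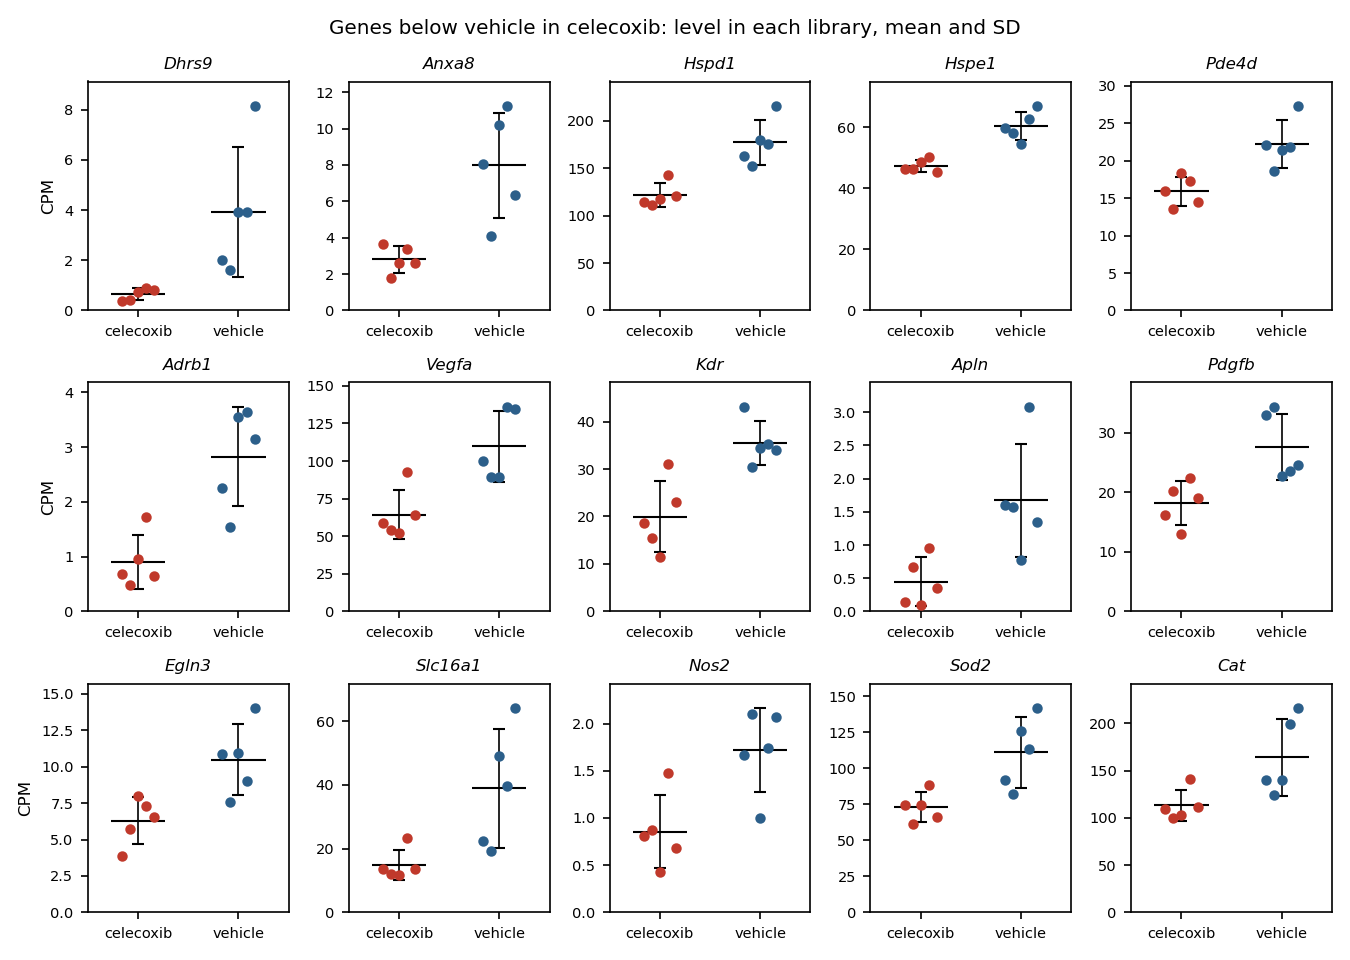
CPM of 15 genes that stood below vehicle, 1 panel per gene with its own axis from 0, points for the 5 celecoxib libraries (left, red) and the 5 vehicle libraries (right, blue) and bars for the mean and SD. Dhrs9, Anxa8, Hspd1, Hspe1, Pde4d and Pdgfb show no overlap, while in Vegfa, Adrb1 and Slc16a1 celecoxib 4, the fourth red point, lies in the vehicle range.

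Among growth factors of smooth muscle and mesenchyme, Pdgfb, the endothelial platelet-derived growth factor that recruits mural cells, had 16.3, 20.3, 12.96, 22.4 and 19.1 CPM in celecoxib and 33.1, 34.4, 22.8, 23.5 and 24.6 CPM in vehicle (log2 fold change -0.60, SE 0.15, adjusted p = 0.269). The highest celecoxib library lay just under the lowest vehicle library. Its value was -0.60 with the adipocyte covariate. Fgf10, a mesenchymal fibroblast growth factor, averaged 0.850 ± 0.424 CPM in celecoxib and 2.017 ± 0.921 CPM in vehicle (log2 fold change -1.24), and Dusp4, a phosphatase of MAP kinases, averaged 2.10 ± 1.32 CPM in celecoxib and 5.85 ± 3.12 CPM in vehicle (log2 fold change -1.47). With the covariate Fgf10 and Dusp4 read -0.22 and -0.19. In the FGF and PDGF list as a whole 4 of 43 members were lower and 2, Fgf2 at 0.22 and Pdgfc at 0.20, were higher, with a median of -0.01. The lower count was 2 with the covariate, and the higher count was 4 without celecoxib 1 or celecoxib 4.

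TGF-beta and BMP genes had 1 of 49 members higher (Ski, an inhibitor of SMAD transcription, at 0.13) and 1 lower. Tgfb2, the lower member, averaged 76.7 ± 13.7 CPM in celecoxib and 93.4 ± 12.5 CPM in vehicle (adjusted p = 0.390), and its log2 fold change of -0.28 became -0.18 without celecoxib 1 and -0.49 with the covariate. The lower count of this list was 4 without celecoxib 5. Wnt and Hedgehog genes had 0 of 48 higher and 1 lower, the Wnt receptor Fzd7 at -0.32, which was -0.20 without celecoxib 1. The Wnt and Hedgehog list had 4 lower members with the covariate and 3 without vehicle 4. Notch genes had 0 of 23 higher and 2 lower, the target Hey1 at -0.27 and the ligand Jag2 at -0.44. With the covariate 0 Notch genes were lower and 1 higher, and Jag2 read -0.26. The lower Notch count was also 0 without celecoxib 1, celecoxib 3, vehicle 1, vehicle 4 or vehicle 5. Guidance genes of the semaphorin, ephrin, netrin and slit families had 2 of 57 higher and 4 lower. Ephb3, an ephrin receptor, averaged 17.9 ± 1.46 CPM in celecoxib and 21.4 ± 2.34 CPM in vehicle (adjusted p = 0.275), and its ligand family member Efnb1 stood at -0.59 (adjusted p = 0.278), or -0.37 with the covariate. The lower guidance count was 1 with the covariate, and ran from 2 without celecoxib 3 or vehicle 4 to 7 without celecoxib 4. With all libraries and no covariate these shares were below or close to the background of 5.35% higher and 7.18% lower in the TGF-beta, Wnt and guidance lists.

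Second messengers and receptors of vascular tone included several genes of cyclic AMP turnover. Of 25 phosphodiesterase and cyclase genes 5 were lower and 1 higher, with a median of -0.15. Pde4d, which degrades cyclic AMP, had 15.9, 13.6, 18.3, 17.3 and 14.5 CPM in celecoxib and 22.05, 18.7, 21.4, 21.8 and 27.3 CPM in vehicle (log2 fold change -0.48, SE 0.10, adjusted p = 0.252). The groups did not overlap. Adcy3, an adenylyl cyclase, averaged 49.5 ± 9.24 CPM in celecoxib and 66.9 ± 12.4 CPM in vehicle (log2 fold change -0.43, SE 0.13, adjusted p = 0.275), and Pde8a, another cyclic AMP phosphodiesterase, averaged 11.02 ± 1.91 CPM in celecoxib and 16.2 ± 4.44 CPM in vehicle (log2 fold change -0.55, SE 0.17, adjusted p = 0.275). With the covariate Pde4d read -0.24, Adcy3 -0.23 and Pde8a -0.02, and 0 members of the list were lower and 3 higher.

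Adrb1, the beta-1 adrenergic receptor that couples noradrenaline to cyclic AMP, had 0.678, 0.483, 0.952, 1.73 and 0.648 CPM in celecoxib and 2.25, 1.55, 3.54, 3.65 and 3.15 CPM in vehicle (log2 fold change -1.65, SE 0.35, adjusted p = 0.252). Celecoxib 4, also the library richest in sympathetic nerve markers, was the only treated library above the lowest vehicle library. The value with the adipocyte covariate was -0.92. Htr1b, a serotonin receptor that contracts arteries, averaged 6.75 ± 1.71 CPM in celecoxib and 4.94 ± 1.30 CPM in vehicle (adjusted p = 0.372), and it and Adrb1 were the only members of 24 receptors for noradrenaline, purines, serotonin and acetylcholine past p of 0.05. The lower count of this list was 5 with the covariate and 4 without celecoxib 2. Nos2, inducible nitric oxide synthase, had 0.813, 0.869, 0.427, 1.48 and 0.680 CPM in celecoxib and 1.67, 2.11, 0.995, 1.75 and 2.07 CPM in vehicle (log2 fold change -1.01, SE 0.29, adjusted p = 0.275). Celecoxib 4 overlapped vehicle 3 for this scarce transcript, and the value was -0.63 with the covariate. Npr1, the natriuretic peptide receptor that makes cyclic GMP, stood at -0.15 (adjusted p = 0.384). In the endothelin, angiotensin and kinin list 0 of 17 members passed p of 0.05 in either direction, and in the RGS list 0 of 16. The former had 2 higher with the covariate and 2 lower without celecoxib 4. The RGS list had 3 higher without celecoxib 1.

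Ion transport lists differed in their counts. Potassium channels had 0 of 31 higher and 2 lower, calcium handling 1 of 30 higher and 1 lower, and TRP and chloride channels 0 of 24 higher and 1 lower. Cacna1c, the pore of the smooth muscle L-type calcium channel, averaged 76.8 ± 12.03 CPM in celecoxib and 64.2 ± 6.52 CPM in vehicle (log2 fold change 0.26, SE 0.10, adjusted p = 0.328). The lower count of calcium handling was 4 without celecoxib 5 or vehicle 2. Among sodium pumps and exchangers 4 of 23 were lower, above the background of 7.18%, and 0 higher, and 2 were lower without celecoxib 2 or vehicle 4. Slc4a4, a sodium bicarbonate cotransporter, averaged 21.2 ± 7.16 CPM in celecoxib and 41.5 ± 13.5 CPM in vehicle. With the covariate Slc4a4 read -0.16, in place of -0.97, and 0 of 23 were lower.

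Few structural genes of the extracellular matrix and the contractile apparatus were counted. Of 37 collagens 0 were higher and 1 lower, of 44 elastic fibre, laminin and adhesion genes 1 was higher and 0 lower, and of 46 contractile and cytoskeletal genes 2 were higher and 1 lower. The collagen that stood lower was Col11a2, a minor fibrillar chain, at 6.87 CPM in celecoxib and 10.7 CPM in vehicle (log2 fold change -0.63, SE 0.17, adjusted p = 0.269). Tagln, the abundant smooth muscle protein SM22, averaged 9261 ± 536 CPM in celecoxib and 8310.4 ± 789.7 CPM in vehicle (log2 fold change 0.16, adjusted p = 0.395), and read 0.07 with the covariate. Vcan and Hapln1, a large proteoglycan and the link protein that binds such proteoglycans to hyaluronan, stood at 0.28 and 0.53. Matrix proteases had 4 of 36 lower and 2 higher. Adam12, a membrane protease of mesenchymal and adipocyte precursors, averaged 3.88 ± 1.72 CPM in celecoxib and 11.3 ± 7.17 CPM in vehicle, and its log2 fold change of -1.54 read -0.13 with the covariate. Without vehicle 2 the contractile list had 9 higher members, and without celecoxib 1 the protease list had 1 lower and 1 higher.

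RNA-binding proteins and protein synthesis genes differed by small amounts. Of 53 splicing factors and RNA-binding proteins 8 were higher and 2 lower, with a median of 0.10 against 0.01 for all genes. Rbm3, an RNA-binding protein induced by cold, had 191, 122, 149, 128 and 128 CPM in celecoxib and 111, 113, 103, 101 and 110.2 CPM in vehicle (log2 fold change 0.42, SE 0.12, adjusted p = 0.269). Srsf4, a serine/arginine-rich splicing factor, had 44.5, 31.9, 34.3, 32.8 and 34.6 CPM in celecoxib and 29.9, 29.6, 29.6, 31.4 and 30.4 CPM in vehicle (log2 fold change 0.24, SE 0.07, adjusted p = 0.275). Neither overlapped, and celecoxib 1 was the highest for both, with 0.30 and 0.16 without it. Cirbp, the other cold-induced member of the list, stood at 0.54 (adjusted p = 0.276). Hnrnpm, a heterogeneous nuclear ribonucleoprotein, had 135, 151, 147, 147 and 144 CPM in celecoxib and 154, 161, 169, 163 and 165 CPM in vehicle (log2 fold change -0.17, SE 0.04, adjusted p = 0.269). The higher count ran from 3 without celecoxib 3 or vehicle 4 to 18 without celecoxib 4 and was 2 with the covariate.

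In ribosome biogenesis 6 of 56 members were lower and 1 higher, while of 77 cytosolic ribosomal proteins 1 was higher and 0 lower. With the covariate ribosome biogenesis had 1 lower and 0 higher. The higher count was 4 without celecoxib 4. Nolc1, a nucleolar phosphoprotein, averaged 51.5 ± 3.27 CPM in celecoxib and 59.3 ± 3.73 CPM in vehicle (log2 fold change -0.20, SE 0.06, adjusted p = 0.270), or -0.13 with the covariate, and Ddx18, a nucleolar helicase, averaged 24.6 ± 1.53 CPM in celecoxib and 27.5 ± 0.668 CPM in vehicle (log2 fold change -0.16, SE 0.05, adjusted p = 0.275). Eef2k, the kinase that slows elongation by phosphorylating eEF2, had 546, 257, 354, 261 and 205 CPM in celecoxib and 173, 179, 156, 208 and 249.9 CPM in vehicle (log2 fold change 0.75, SE 0.22, adjusted p = 0.275). Celecoxib 5 lay within the vehicle range, and the log2 fold change was 0.49 without celecoxib 1. Slc7a5, which imports leucine and other large neutral amino acids, had 56.5, 29.2, 36.8, 33.1 and 25.4 CPM in celecoxib and 21.4, 19.5, 13.2, 20.1 and 24.5 CPM in vehicle (log2 fold change 0.87, SE 0.19, adjusted p = 0.260). The lowest celecoxib library just exceeded the highest vehicle library, so the groups did not overlap. Slc7a5 was 1 of 2 higher members among 39 genes of the amino acid response. The other was Stc2, stanniocalcin 2, at 0.82, or 0.35 without celecoxib 1. The higher count of the amino acid response was 4 with the covariate, and ran from 1 without celecoxib 1 or vehicle 3 to 5 without celecoxib 5.

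Lists of protein quality control outside mitochondria had few members counted with all libraries, and several counts moved with the library left out. Cytosolic heat shock chaperones had 1 of 44 higher and 4 lower, with a median of -0.05, and the lower count was 7 without celecoxib 4 or vehicle 1. Hsf1, the transcription factor of the heat shock response, averaged 48.96 ± 3.70 CPM in celecoxib and 56.6 ± 3.90 CPM in vehicle (log2 fold change -0.21, SE 0.07, adjusted p = 0.283), and Ahsa1, which activates HSP90, stood at -0.22 (adjusted p = 0.275). The unfolded protein response had 2 of 32 higher and 1 lower, proteasome subunits 0 of 42 higher and 2 lower, autophagy and lysosome genes 2 of 52 higher and 0 lower, and ubiquitin ligases 3 of 28 higher, above the background of 5.35%, and 1 lower. Without vehicle 3 the ubiquitin ligases had 7 higher and autophagy and lysosome genes 5 lower, and without celecoxib 1 proteasome subunits had 4 lower. With the covariate 0 proteasome subunits were lower. Wwp1, a HECT ubiquitin ligase, averaged 84.2 ± 11.1 CPM in celecoxib and 67.8 ± 7.32 CPM in vehicle (log2 fold change 0.31, SE 0.09, adjusted p = 0.269), and read 0.46 with the covariate.

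Antioxidant and detoxifying enzymes leaned lower. Of 29 antioxidant genes 5 were lower and 1 higher, and of 33 glutathione, sulfo- and glucuronosyl transferase genes 6 were lower and 0 higher. The lower count of the transferases ran from 3 without celecoxib 3, vehicle 4 or vehicle 5 to 7 without celecoxib 4. That of the antioxidant genes ran from 4 without celecoxib 3, celecoxib 5 or vehicle 4 to 8 without vehicle 3. Sod2, the mitochondrial superoxide dismutase, had 74.5, 61.0, 74.3, 88.8 and 66.1 CPM in celecoxib and 92.0, 82.1, 126, 113 and 142 CPM in vehicle (log2 fold change -0.61, SE 0.14, adjusted p = 0.269). Only celecoxib 4 lay in the vehicle range. Cat, catalase, averaged 113 ± 16.5 CPM in celecoxib and 164 ± 40.9 CPM in vehicle (log2 fold change -0.53, SE 0.17, adjusted p = 0.275). Mgst1, a membrane glutathione transferase, averaged 59.1 ± 15.8 CPM in celecoxib and 99.4 ± 33.6 CPM in vehicle. With the covariate Sod2 read -0.19, while Cat at 0.00 and Mgst1 at 0.05 turned sign, and neither list had a lower member. Cyp2u1, a cytochrome P450 that hydroxylates arachidonic and other long-chain fatty acids, was the only member of 26 past p of 0.05, with 1.59, 1.995, 1.94, 2.0201 and 2.11 CPM in celecoxib and 3.09, 2.53, 2.64, 2.29 and 3.51 CPM in vehicle (log2 fold change -0.54, SE 0.15, adjusted p = 0.269). Its groups did not overlap, and it read -0.46 with the covariate.

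In retinoid metabolism and signalling 7 of 29 members were lower and 2 higher, with a median of -0.09. Besides Dhrs9, these were Retsat, a retinol saturase, at -0.56, the short-chain dehydrogenases Dhrs4 at -0.28 and Dhrs7 at -0.23, the binding protein Rbp7 at -1.09, the retinol dehydrogenase Rdh10 at -0.25 and the receptor Rarb at -0.40. With the covariate 4 members were lower and 2 higher, Retsat turned to 0.05 and Dhrs4 read -0.01. ABC transporters had 2 of 34 lower and 1 higher, and the lower count ran from 1 without vehicle 4 or vehicle 5 to 5 without celecoxib 4 or vehicle 2. Abcd3, the peroxisomal transporter, averaged 102 ± 6.98 CPM in celecoxib and 121 ± 5.87 CPM in vehicle (log2 fold change -0.25, SE 0.06, adjusted p = 0.260), and Abcc1, which exports leukotriene C4 and glutathione conjugates, stood at 0.20 (adjusted p = 0.368). With the covariate Abcd3 read -0.12 and Abcc1 0.07. Carbonic anhydrases had 3 of 12 lower and 0 higher, and 1 lower without vehicle 5. Car13 averaged 2.56 ± 0.707 CPM in celecoxib and 5.73 ± 1.97 CPM in vehicle (log2 fold change -1.16, SE 0.30, adjusted p = 0.269). With the covariate 0 carbonic anhydrases were lower. Car13 kept its sign there at -0.21, while Car2 and Car3 turned from negative to 0.21 and 0.35.

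Immune genes were sparse and mixed. Chemokines, interleukins and their receptors had 3 of 51 higher and 5 lower, and interferon response genes 0 of 39 higher and 1 lower. Antigen presentation genes had 0 of 20 in either direction, although 17 of the 20 had a negative sign. With the covariate 10 of those 20 were negative and 10 positive. The lower count of the chemokine list was 0 with the covariate and ran from 2 without vehicle 4 to 6 without vehicle 2. Lifr, the receptor of leukaemia inhibitory factor, had 156, 103, 135, 131 and 109.7 CPM in celecoxib and 91.5, 92.3, 85.8, 111 and 105 CPM in vehicle (log2 fold change 0.39, SE 0.10, adjusted p = 0.269). Only celecoxib 2 and celecoxib 5 were within the vehicle range, and the value with the covariate was 0.61. Cxcr7, a scavenging receptor for CXCL12, had 38.7, 40.7, 23.2, 39.6 and 38.3 CPM in celecoxib and 46.7, 45.2, 53.2, 54.4 and 49.3 CPM in vehicle (log2 fold change -0.46, SE 0.16, adjusted p = 0.300). Its groups did not overlap. Macrophage markers summed to 81.4 to 166 CPM in celecoxib and 88.9 to 196 CPM in vehicle, with 0 of 10 past p of 0.05. Mast cell markers summed to 14.1 to 42.7 CPM in celecoxib and 17.9 to 32.3 CPM in vehicle. All 5 tested had a positive sign, with 0 past p of 0.05. Neutrophil markers summed to 12.1 CPM in celecoxib 1, to 0.128 to 1.33 CPM in the other celecoxib libraries and to 0.825 to 6.27 CPM in vehicle. Of the 2 tested markers each of neutrophils, B cells and T cells, 0 were past p of 0.05. In complement and coagulation 3 of 40 were lower, among them Thbd, the endothelial anticoagulant thrombomodulin, at 82.4 CPM in celecoxib and 107 CPM in vehicle (log2 fold change -0.38, SE 0.13, adjusted p = 0.289), and Cfd, an adipocyte marker, at -0.80, which read 0.04 with the covariate and -0.51 without vehicle 4. Cfd is itself among the markers averaged into that covariate. The lower count of complement and coagulation was 0 with the covariate and 1 without celecoxib 3 or vehicle 4.

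The remaining families gave mixed counts. Histones and chromatin modifiers had 5 of 60 higher and 3 lower, and the higher count ran from 1 without celecoxib 1 or vehicle 4 to 11 without vehicle 3. Tet2, a DNA demethylase, stood at 0.28 and the histone gene Hist1h4h, whose polyadenylated copies only are measured here, at -0.76, or -0.51 with the covariate. Cell cycle and replication genes had 3 of 60 higher and 2 lower, and the higher count ran from 1 without celecoxib 1, celecoxib 2 or vehicle 5 to 5 without vehicle 1. Hox genes had 2 of 28 higher, Hoxa6 and Hoxa7, and 1 lower, Hoxa4, which had 5.02, 4.99, 4.66, 4.94 and 4.502 CPM in celecoxib and 7.30, 5.36, 6.37, 5.05 and 6.96 CPM in vehicle (log2 fold change -0.36, SE 0.12, adjusted p = 0.284). Hoxa6 at 0.26 read 0.16 with the covariate and Hoxa7 at 0.24 read 0.11. Annexins and S100 genes had 4 of 21 lower, above the background of 7.18%, and 0 higher, but a positive median of 0.10. Without vehicle 2 there were 7 higher, and with the covariate 1 was lower. Keratins, claudins and junction genes had 0 of 20 in either direction. Cholesterol synthesis and uptake had 2 of 29 higher and 3 lower with a median of 0.13, and the higher count ran from 0 without celecoxib 1, vehicle 3 or vehicle 5 to 11 without vehicle 2. Of the 57 families 48 had a median within 0.1 of 0 on the log2 scale.

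**Figure D5:**
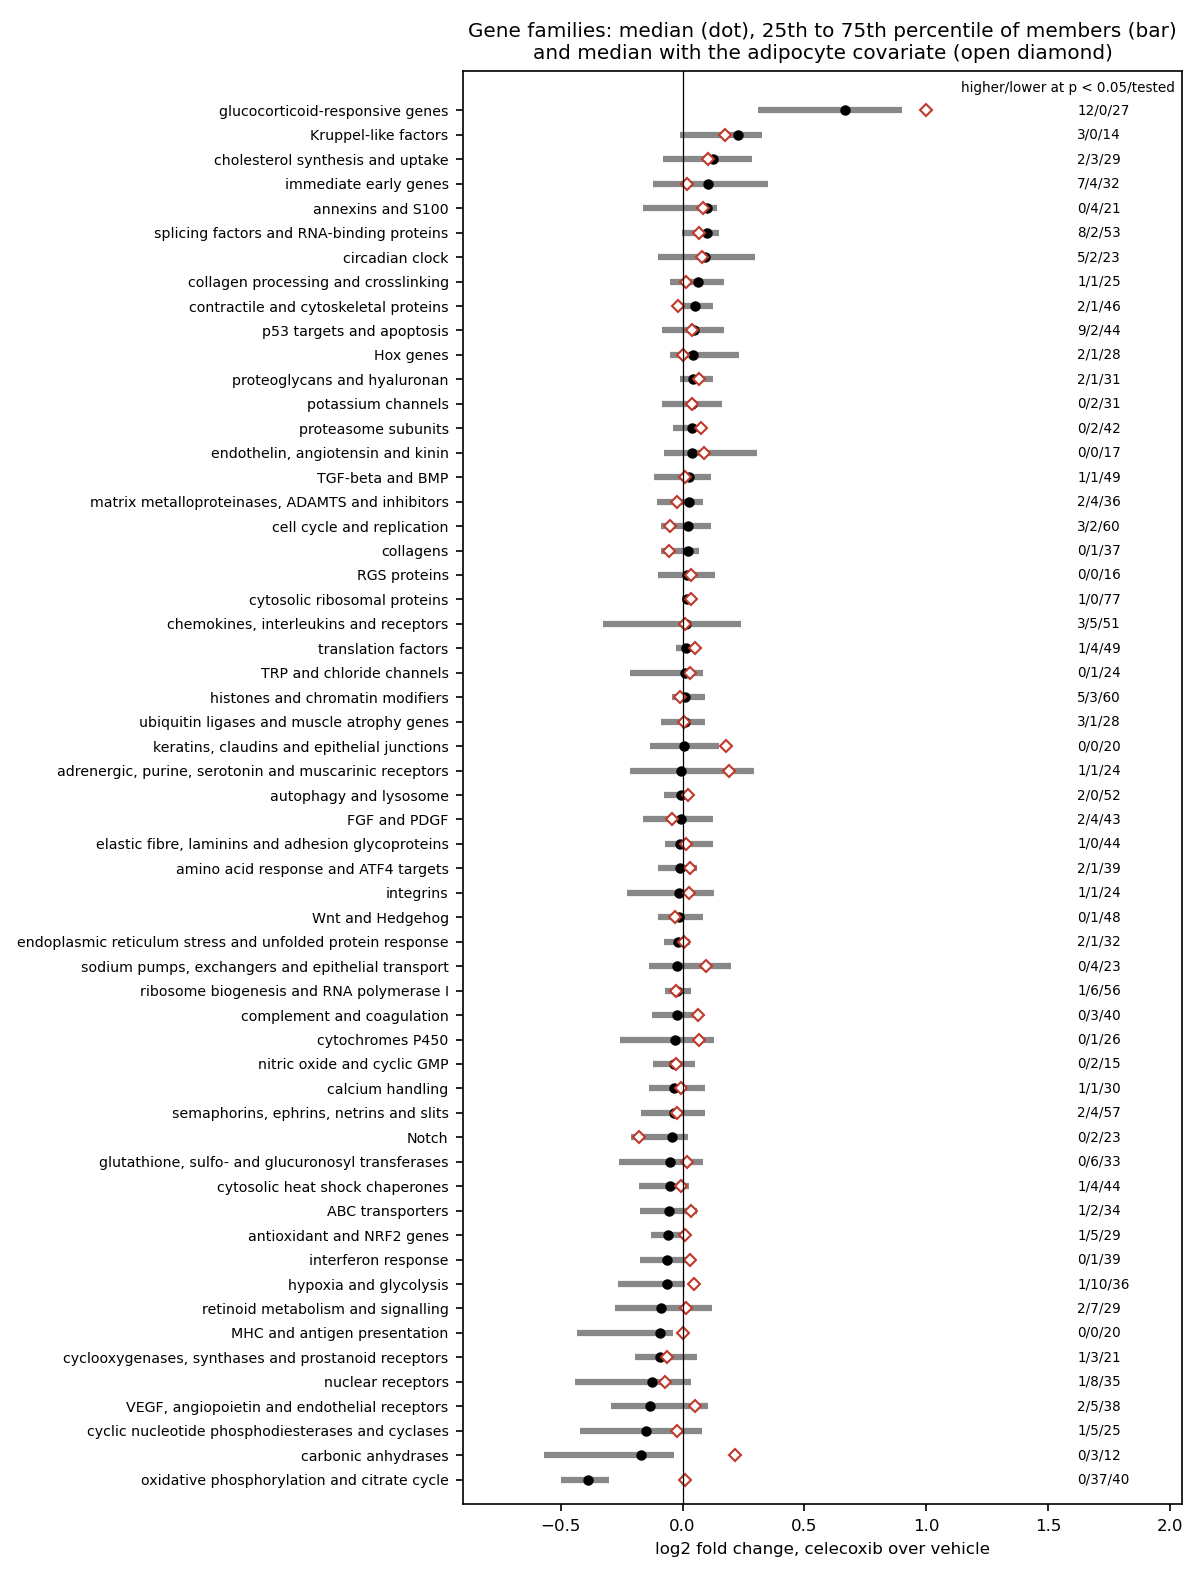
The 57 gene families ordered by median log2 fold change of celecoxib over vehicle (black dot), with the 25th to 75th percentile of members (grey bar), the median with the adipocyte covariate (open red diamond) and, at the right, the counts of members higher and lower at an unadjusted p under 0.05 and of members tested. The glucocorticoid-responsive genes lie at 0.67 and, with the covariate, higher still, while oxidative phosphorylation lies at -0.39 and, with the covariate, at 0.01.

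Rofecoxib at 10 mg/kg was set beside celecoxib at 30 mg/kg for a few genes, with the caution that the doses differ, that both comparisons use the same 5 vehicle libraries and that these genes were chosen on the celecoxib libraries. Rofecoxib against vehicle also gave 0 called genes, with 784 at an unadjusted p under 0.05 (5.18%). Celecoxib against rofecoxib gave 0 called genes in the same edgeR test, with 1053 at an unadjusted p under 0.05 (6.96%), and 19 by DESeq2. Slc7a5 had 20.03, 21.5, 18.9, 17.6 and 21.02 CPM in rofecoxib, and its log2 fold changes against vehicle were 0.87 for celecoxib and 0.00 for rofecoxib. All 5 celecoxib libraries were above all 5 rofecoxib libraries for Slc7a5 (celecoxib over rofecoxib 0.87, SE 0.19, adjusted p = 0.605). Hif3a stood at 1.27 with celecoxib and -0.17 with rofecoxib, Klf13 at 0.45 and -0.05, Eef2k at 0.75 and -0.01, Pgf at 1.01 and -0.20, and Jun at 0.41 and -0.17. Ptgs2 stood at 1.02 with celecoxib and 0.45 with rofecoxib, Dhrs9 at -2.60 and -1.34, Vegfa at -0.77 and -0.42, and Adam12 at -1.54 and -1.55. None of these differences between the compounds passed the adjustment over all genes tested.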

How the data were processed

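Polyadenylated RNA of the mouse thoracic aorta was sequenced in 15 libraries, 5 per group, and the numbers in the sample titles name the libraries. The labels do not say in so many words that each library is a separate animal, so p-values measure the spread between these samples. Libraries were built over 3 days per the labels, but the day of each library is not stated, and the fits hold no batch term. The authors deposited whole-number counts per gene with mm9 coordinates. Per the submitters' processing notes CASAVA 1.8.2, STAR 2.5.2a and mm9 were used. How reads were assigned to genes, with or without strand, and by which annotation is not given in the sources used here. Thus overlapping, antisense and near-identical genes are uncertain. Library totals lay within 0.0971% of each other, which no recorded step explains, so the original depth is unknown. All 37 mitochondrial rows held 0 counts.

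Genes were kept by filterByExpr in edgeR 4.0.16 (R 4.3.3), leaving 99.95% of counts, and scaled by TMM. A robust quasi-likelihood fit without covariates covered all 15 libraries, with Benjamini-Hochberg adjustment over 15134 genes and a threshold of 0.05. Standard errors were derived as the log2 fold change over the root of F. Named genes were the 15 of smallest p per direction above a mean of 1 CPM, the 3 of smallest p in each family, and Ptgs1 and Ptgs2, in all 152, and some are not reported here. Further members named in the text were chosen after their values were seen. The comparison, the 57 families and the 17 marker lists were chosen with earlier results of these data known. No set test was run. No pair of libraries of a group agreed within sampling noise (smallest chi-square per gene 14.4). Alternatives used DESeq2 1.42.0, limma-voom (limma 3.58.1), other scalings and filters, a replicate block, an adipocyte covariate and leaving out each library. Family counts with libraries left out or with the covariate were added after seeing the data. Promoters are RefSeq GRCm38.p6 windows matched by symbol, 10237 of 15102 tested symbols, and were not converted to mm9. Figures used matplotlib 3.10.9.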

Additional observations from a re-analysis of the deposited data

Results flagged for a closer look

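Each of the 152 named genes was checked for a library far from the other 4 of its group, by Dixon's criterion at 5 libraries. Of 304 groups 22 held such a library, and chance flags about 1 in 20 groups. Of the 22, 21 are given here. Celecoxib 1 held 10 of the 22. It was high for Ammecr1 at 29.4 CPM (next 15.7), Pgf at 42.6 (next 14.7), Per1 at 430.8 (next 262), Srsf4 at 44.5 (next 34.6), Stc2 at 55.5 (next 23.7), Psma1 at 85.8 (next 78.8), Adamts14 at 65.5 (next 39.0), Herpud1 at 228 (next 155) and Atg4a at 31.6 (next 25.04), and low for Ahsa1 at 67.2 CPM (next 76.2).

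Among the other celecoxib libraries, celecoxib 3 stood apart for Stk17b at 168 CPM and Cxcr7 at 23.2 CPM, celecoxib 4 for Slc16a1 at 23.2 CPM, Dusp4 at 4.42 CPM and Cat at 141 CPM, and celecoxib 5 for Ptgs2 at 90.8 CPM, where the next library had 47.9. Among vehicle libraries, vehicle 2 stood apart for Lxn at 27.7 CPM and Plekhh1 at 3.39 CPM, vehicle 3 for Sesn1 at 80.8 CPM, and vehicle 5 for Adcy3 at 88.3 CPM and Car2 at 3.68 CPM.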

How the results depend on the processing

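DESeq2 called 126 genes for celecoxib against vehicle and 19 for celecoxib against rofecoxib, where the edgeR test called 0. Leaving out 1 library gave 0 to 8 called genes for celecoxib against vehicle and 0 to 1 for celecoxib against rofecoxib. Higher genes at an unadjusted p under 0.05 numbered 490 with only the 10 libraries in the fit, which also leaves fewer samples to estimate the spread, and 629 to 1168 with 1 library left out. Lower genes numbered 395 with the adipocyte covariate, and 701 (without vehicle 5) to 1239 with 1 library left out. Genes whose groups did not overlap numbered 131 to 256 higher and 135 to 412 lower with 1 library left out, a setting in which 4 libraries face 5 and separation is easier by construction. The sign reversed with the adipocyte covariate for Cat (0.00096), Retsat (0.046), Pparg (0.074), Mgst1 (0.0501), Car2 (0.21), Cfd (0.036), Clic5 (0.076) and Car3 (0.35), and for Ptgs1 without celecoxib 5, where values with 1 library left out ran from -0.032 to 0.24 (without vehicle 4). Cfd is itself among the markers averaged into the covariate, so its own value there is adjusted partly by itself. The cause of the other shifts was not tested. With the replicate number as a block 790 genes were higher and 1156 lower, with 0 called. Whether the numbers hold a pairing is not stated in the labels. Deviations of same-numbered libraries correlated at r of 0.196, 0.0997, 0.307, 0.775 and -0.0778 for replicates 1 to 5. Of the 5 celecoxib libraries 1 correlated best with its own number. So few values cannot settle the question. Other scalings and filters kept the gene counts within 1.5 times. Unknown original depth limits what scarce transcripts such as Nos2, Apln and Dhrs9 can show.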
